A study of Homo sapiens with 12 samples.

Results

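Antibody-secreting plasma cells are the cells of multiple myeloma, and the genes that define them and the B cells they come from were examined on arrays labelled as myeloma lines. A list of 37 genes was drawn up by name from B cell, plasma cell and immunoglobulin biology, and each was found on the array, among 19775 genes in all. Each gene was read through the brightest of the probe sets that name it alone, on the deposited log2 scale, where a step of 1 is a doubling. The 12 arrays form 4 groups of 3: MMS1 with a miR-16 sponge, MMS1 with a control mock sponge, RPMI8226 with a miR-16 sponge and RPMI8226 with a control mock sponge. RPMI8226 appears in part of the labels as RPMI or RPMI826, and MMS1 is given no further description. All 4 groups had been transduced with a lentivirus that carries GFP, sorted by flow cytometry and expanded, and their RNA had passed through 2 rounds of linear amplification. A sponge is a transcript with many binding sites for a microRNA, which holds it away from its targets. The labels also call the treated groups a knock down, KO or siRNA. The labels tie no array to its own flask or transduction, so p-values measure only the spread between these arrays.

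Plasma cells arise when a B cell shuts down its B cell program under PAX5 and BCL6 and switches on IRF4, PRDM1 (Blimp-1) and XBP1. XBP1 then enlarges the endoplasmic reticulum, where heavy and light immunoglobulin chains are folded and from which they are secreted. Plasma cells keep SDC1 (CD138), CD38 and TNFRSF17 (BCMA) at the surface, which are the markers and drug targets of myeloma, and lose B cell genes such as MS4A1 (CD20), CD22 and EBF1. The MIR16-1 gene lies on the long arm of chromosome 13, in a region often deleted in myeloma, and the stated aim of the study was to imitate that loss.

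The sequences below are RefSeq's, on GRCh38.p14. The microRNA is shown with 3 relatives that carry the same seed, bases 2 to 8, given in capitals.
hsa-miR-16-5p: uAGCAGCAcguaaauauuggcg
hsa-miR-15a-5p: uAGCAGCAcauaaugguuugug
hsa-miR-15b-5p: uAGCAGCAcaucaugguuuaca
hsa-miR-195-5p: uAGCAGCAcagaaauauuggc
Identical copies of miR-16-5p lie at chr13:50049027-50049048 on the minus strand (MIR16-1) and at chr3:160404754-160404775 on the plus strand (MIR16-2).

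Promoters were available for 25 of the 37 genes, 32 promoters in all, and the 250 bases before each gene start were searched on both strands for 3 motifs of this cell type. The 3 stretches printed show each motif found with its flanks upstream of the gene start. They belong to XBP1 and SSR4, which had high signals, and to VPREB3, which had a low one.
XBP1: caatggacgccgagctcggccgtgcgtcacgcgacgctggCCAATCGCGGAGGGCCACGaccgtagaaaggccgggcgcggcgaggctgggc
SSR4: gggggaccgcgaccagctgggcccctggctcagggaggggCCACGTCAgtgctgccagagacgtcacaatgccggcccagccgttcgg
VPREB3: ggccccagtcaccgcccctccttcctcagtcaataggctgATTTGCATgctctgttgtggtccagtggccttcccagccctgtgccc
In XBP1 (chr22:28800570-28800661, minus strand) the capitals mark the endoplasmic reticulum stress element (CCAAT, then 9 bases of any kind, then CCACG), present in 0.074% of 35116 promoters of the same length. In SSR4 (chrX:153794499-153794586, plus strand) they mark, on the opposite strand, the unfolded protein response element TGACGTGG, which 0.612% of promoters hold. In VPREB3 (chr22:23754426-23754512, minus strand) they mark, again on the opposite strand, the octamer ATGCAAAT bound by the partners of POU2AF1, found in 1.63% of promoters. Each motif was found in 1 of the genes searched, and a match in the letters is not a measured site.

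The arrays were similar in scale, with medians between 5.80 and 5.90 and a lower bound of 4 for the values. The median gene averaged 6.44 and the upper quartile of genes began at 7.62. The 18S ribosomal RNA probes stood apart on MMS1 miR-16 sponge replicate 1, at 7.84 against 9.56 to 11.1 on the other 11 arrays. With 3 arrays a group, a difference between groups had a median standard error of 0.14 on the log2 scale, and that small number of arrays sets the precision.

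The labelled cell type was looked at first, and most of the 37 genes ranked low. The lists below were chosen with earlier results of these data known, so their ranks describe the arrays and are no independent check. Of the 37 genes, 22 lay below the median gene, 10 between it and the upper quartile and 5 above the quartile. Ranked within each array, the median of the 37 genes stood at percentile 34.2 to 42.6 of all genes. Of 14 erythroid markers 11 lay above the quartile, and their median stood at percentile 89.9 to 94.6. On every array the embryonic globin gene HBE1 gave 13.80 to 14.40 and the erythroid regulator GATA1 9.27 to 9.84. Medians of 12 T cell markers stood at percentile 28 to 36.3, of 11 myeloid markers at 27.6 to 41.1, and of 11 stromal and epithelial markers at 75.7 to 80.2. These percentiles also depend on how well each probe set binds its transcript. The arrays are therefore named by their labels only. In bulk RNA, fewer cells of a type and less RNA per cell cannot be told apart.

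**Figure D1:**
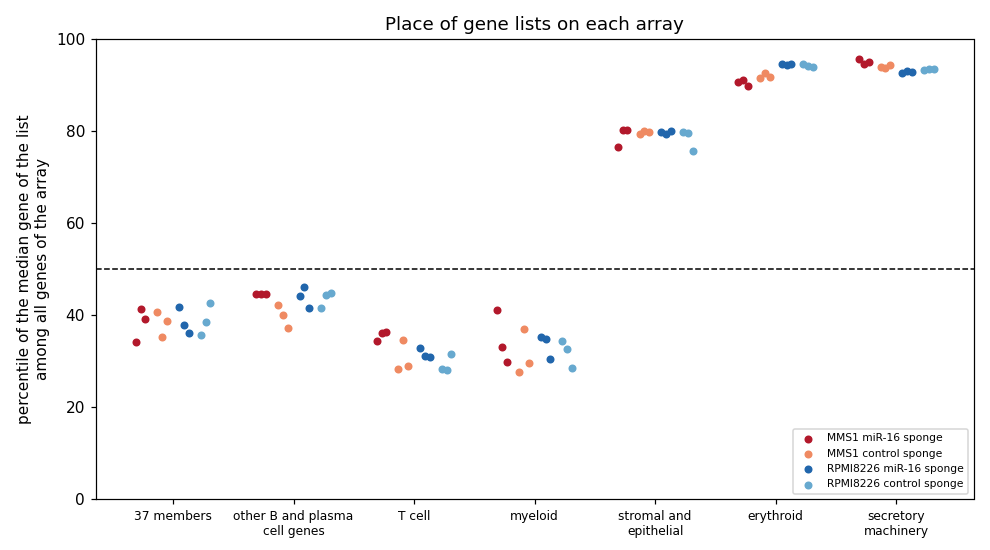
Percentile of the median gene of each list among all 19775 genes, 1 point per array, in the 4 groups; the dashed line is percentile 50. The 37 genes sit between 34.2 and 42.6 on all 12 arrays, the erythroid markers between 89.9 and 94.6 and the secretory machinery between 92.6 and 95.6.

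Of the 4 regulators that make a plasma cell, 1 gave a high signal. XBP1, which drives secretory expansion, averaged 8.51 ± 0.16 (SD, n = 12 arrays). In MMS1 it gave 8.38, 8.37 and 8.48 on miR-16 sponge arrays and 8.39, 8.32 and 8.29 on control arrays, and in RPMI8226 8.76, 8.78 and 8.51 with the miR-16 sponge and 8.60, 8.63 and 8.55 with the control. All 12 values lay above the upper quartile of genes, with RPMI8226 above MMS1 throughout. IRF4, on which myeloma cells depend, gave 6.49, 6.47 and 6.34 on MMS1 miR-16 sponge arrays and 6.35, 6.57 and 6.65 on MMS1 control arrays. In RPMI8226 it gave 6.40, 6.60 and 6.30 with the miR-16 sponge and 6.18, 6.67 and 6.57 with the control. IRF4 thus lay at the level of the median gene in every group, and the groups overlapped.

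PRDM1, the repressor that ends the B cell program, gave 5.72, 6.06 and 6.10 on MMS1 miR-16 sponge arrays and 5.39, 5.71 and 5.99 on MMS1 control arrays. Its RPMI8226 values were 6.45, 6.05 and 5.75 with the miR-16 sponge and 6.26, 6.12 and 6.54 with the control. Sponge and control overlapped in both lines, and PRDM1 averaged below the median gene, at 6.01 ± 0.33. POU2AF1, the coactivator of octamer-binding factors, averaged 5.27 ± 0.38 and ranged from 4.65 to 5.71.

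Among 7 surface genes of plasma cells, SDC1 alone lay above the upper quartile. SDC1, the syndecan CD138, gave 8.88, 8.91 and 8.94 on MMS1 miR-16 sponge arrays and 8.73, 8.64 and 8.60 on MMS1 control arrays. For SDC1 the RPMI8226 arrays gave 9.35, 9.12 and 9.09 with the miR-16 sponge and 8.81, 8.76 and 9.03 with the control. In both lines all 3 sponge arrays were above all 3 control arrays. The changes, 0.25 for MMS1 (limma adjusted p = 0.18) and 0.32 for RPMI8226 (adjusted p = 0.213), did not pass the test. Epithelial cells carry SDC1 as well, and the epithelial genes KRT8 and KRT18 averaged 11.08 ± 1.09 and 12.19 ± 0.51 here; their part in the SDC1 signal was not tested.

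CD38, an ectoenzyme, gave 5.33, 5.16 and 5.01 on MMS1 miR-16 sponge arrays and 5.0, 4.94 and 4.73 on MMS1 control arrays. On RPMI8226 arrays CD38 gave 4.91, 4.29 and 4.90 with the miR-16 sponge and 4.42, 4.89 and 5.33 with the control. All 12 values lay well below the median gene. TNFRSF17, the receptor BCMA, gave 4.56, 4.0 and 4.24 on MMS1 miR-16 sponge arrays and 4.52, 4.69 and 4.70 on MMS1 control arrays. In RPMI8226 it gave 4.59, 4.29 and 4.66 with the miR-16 sponge and 4.02, 4.56 and 4.74 with the control. TNFRSF17 sat near the lower bound throughout, and at it or just above it on 2 arrays. Of the other surface genes, FCRL5 averaged 5.85 ± 0.15 and CD27, a receptor of memory B and plasma cells, 5.71 ± 0.24. TNFRSF13B (TACI) and SLAMF7, an antibody target in myeloma, averaged 6.57 ± 0.19 and 6.95 ± 0.24, between the median gene and the quartile.

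Of the 3 secretion genes 1 was high, 1 intermediate and 1 low. SSR4, a subunit of the translocon-associated complex that many cell types use, averaged 10.29 ± 0.11, and DERL3, a protein of the degradation pathway of the endoplasmic reticulum, 7.16 ± 0.13. MZB1, a chaperone of immunoglobulin assembly in B and plasma cells, averaged 5.49 ± 0.21, below the median gene on every array. Of 25 other genes of the secretory machinery 23 lay above the upper quartile, RPN2, LMAN1, SEC61B and OST4 with the highest means (11.50, 10.62, 10.60 and 10.12).

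No immunoglobulin gene among the 37 reached the upper quartile. JCHAIN, which joins antibody units, gave 4.0, 4.0 and 4.50 on MMS1 miR-16 sponge arrays and 4.35, 4.39 and 4.71 on MMS1 control arrays. Its RPMI8226 values were 4.0, 4.21 and 4.0 with the miR-16 sponge and 4.0, 4.01 and 4.18 with the control. JCHAIN sat at the lower bound or just above it on 6 arrays. IGKC, the kappa constant region, gave 6.60, 6.52 and 6.20 on MMS1 miR-16 sponge arrays and 6.37, 6.27 and 6.33 on MMS1 control arrays. For IGKC the RPMI8226 arrays gave 6.75, 6.66 and 6.38 with the miR-16 sponge and 6.40, 6.38 and 6.66 with the control. IGKC stood at the median gene, with overlapping groups. IGLC1, a lambda constant region, averaged 5.70 ± 0.16, with 5.59 ± 0.22 in RPMI8226 miR-16 sponge and 5.70 ± 0.05 in RPMI8226 control arrays (SD, n = 3 each). As background, RPMI8226 is known as a line that secretes lambda light chain. The heavy chain genes IGHM and IGHD averaged 6.66 ± 0.24 and 6.92 ± 0.25.

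Immunoglobulin genes resemble each other, so 51 further probe sets name one of these members together with other genes. Of them 48 averaged below the median gene and 0 above the quartile, and the highest mean was 7.19. The surrogate light chain genes of immature B cells, IGLL1 and VPREB3, averaged 4.49 ± 0.35 and 5.21 ± 0.22.

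Most B cell genes were low, and the 2 above the upper quartile rest on 1 probe set each. CD79A, a signalling chain of the B cell receptor, gave 8.17, 8.23 and 8.19 on MMS1 miR-16 sponge arrays and 8.27, 8.25 and 8.08 on MMS1 control arrays. On RPMI8226 arrays CD79A gave 8.36, 8.24 and 8.43 with the miR-16 sponge and 8.17, 8.42 and 8.34 with the control. CD79A had the smallest range over the 12 arrays of all 37 genes, 0.35, but its second probe set averaged 5.92. CD22, an inhibitory receptor, averaged 7.90 ± 0.13 through its brightest probe set and 4.67 to 5.84 through its other 3. CD79B, the partner chain of CD79A, averaged 5.97 ± 0.22.

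MS4A1, the antigen CD20, gave 5.43, 5.40 and 5.49 on MMS1 miR-16 sponge arrays and 5.07, 4.91 and 5.60 on MMS1 control arrays. In RPMI8226 it gave 5.58, 5.50 and 4.91 with the miR-16 sponge and 5.48, 5.72 and 5.33 with the control. The groups overlapped, and all values were below the median gene. PAX5, the factor that fixes B cell identity, gave 5.04, 5.53 and 5.28 on MMS1 miR-16 sponge arrays and 5.06, 5.46 and 4.83 on MMS1 control arrays. Its RPMI8226 values were 5.49, 5.41 and 5.23 with the miR-16 sponge and 5.58, 5.61 and 5.43 with the control. PAX5 was low everywhere, and sponge and control overlapped in both lines.

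The complement receptor CR2 and the IgE receptor FCER2 averaged 4.98 ± 0.24 and 6.30 ± 0.19. Of the 2 kinases of the B cell receptor, BLK averaged 5.69 ± 0.21 and BTK, which myeloid cells also use, 6.87 ± 0.21. By their means over the 12 arrays the other B cell regulators were all below the median gene, BACH2 only just. The means were EBF1 5.05 ± 0.42, BCL6 5.78 ± 0.31, BACH2 6.43 ± 0.50, SPIB 5.79 ± 0.15 and TCL1A 5.99 ± 0.19. By group BACH2 averaged above the median gene in MMS1 control (6.93), RPMI8226 miR-16 sponge (6.58) and RPMI8226 control arrays (6.55). In MMS1 miR-16 sponge arrays it averaged 5.68. BACH2, which represses PRDM1 in B cells, had the largest range over the arrays, 1.55.

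CIITA, the master activator of MHC class II, averaged 6.45 ± 0.12. CD74, the invariant chain that escorts class II, gave 6.37, 6.32 and 6.78 on MMS1 miR-16 sponge arrays and 6.51, 6.69 and 6.42 on MMS1 control arrays. For CD74 the RPMI8226 arrays gave 6.78, 6.05 and 6.56 with the miR-16 sponge and 6.40, 6.60 and 6.72 with the control. CD74 lay around the median gene, and its groups overlapped. Of 14 other class II genes and regulators 7 lay below the median gene and 2 above the quartile.

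**Figure D2:**
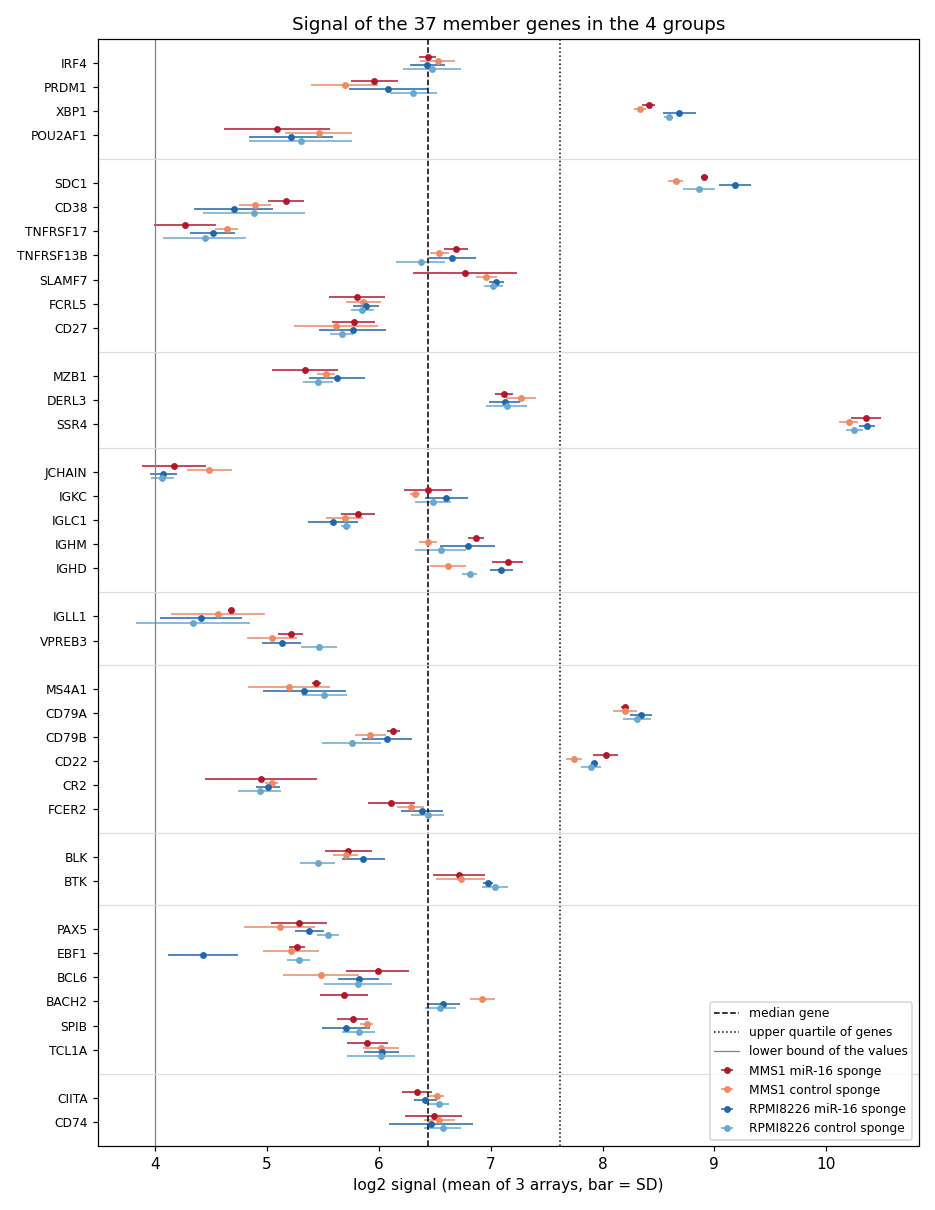
Mean log2 signal of the 37 genes in the 4 groups (points, 3 arrays each, bars SD), ordered by role; dashed and dotted lines mark the median gene (6.44) and the upper quartile of genes (7.62), and the grey line the lower bound of 4. SSR4, SDC1, XBP1, CD79A and CD22 lie right of the quartile, and 22 genes have a mean over all 12 arrays left of the median gene. BACH2 is 1 of the 22, with only its MMS1 miR-16 sponge point to the left.

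Levels depended on the probe set for many of the genes. The 37 genes have 101 probe sets that name 1 of them alone, of which 86 averaged below the median gene and 5 above the quartile. Among 28 genes with several probe sets, 17 had means more than 1 apart and 7 more than 2 apart. SDC1 averaged 8.90 through one probe set and 5.44 through the other, and XBP1 8.51 and 5.47. The 5 probe sets above the quartile belong to 5 different genes, so none of the 5 high levels has a second high probe set, and SSR4 has a single one.

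**Figure D3:**
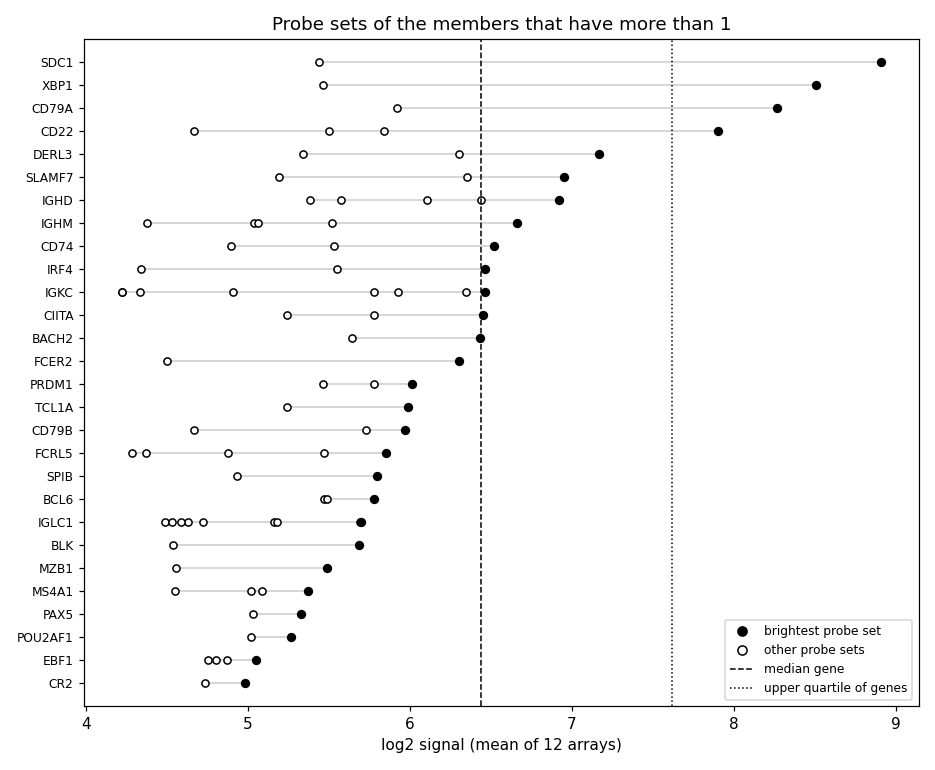
Mean log2 signal over 12 arrays of each probe set of the 28 genes that have more than 1 (filled, brightest; open, others), with the median gene (6.44) and the upper quartile (7.62) as lines. SDC1, XBP1, CD79A and CD22 each have a single point right of the quartile, and their other probe sets lie left of the median gene.

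The next question was whether the miR-16 sponge moved these genes. In MMS1, BACH2 fell and IGHD rose, and 35 of 37 genes did not pass (limma, Benjamini-Hochberg adjusted p under 0.05). Over all genes 12.4% were called, 4.34% as higher and 8.08% as lower, so 2 of 37 is a smaller share than the background. At an unadjusted p under 0.05, 6 of the 37 passed, where 25.6% of all genes did. The sponge and control arrays did not overlap for 7 of the 37, against 31.1% of all genes. The median change of the 37 was 0.05, and of all genes -0.04.

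BACH2 through its brightest probe set gave 5.73, 5.45 and 5.88 on MMS1 miR-16 sponge arrays and 6.98, 7.0 and 6.80 on MMS1 control arrays. All 3 sponge arrays were well below all 3 control arrays. The means were 5.68 ± 0.22 and 6.93 ± 0.11 (SD, n = 3 each), a log2 change of -1.24 (SE 0.131, 95% interval -1.53 to -0.96, limma adjusted p = 4.54e-05), or 2.36-fold lower. The second BACH2 probe set gave 4.59, 4.60 and 4.68 with the miR-16 sponge and 6.26, 6.24 and 6.20 with the control, a change of -1.61 (adjusted p = 1.72e-05). Both BACH2 probe sets thus fell, and both calls held under every alternative in which they were tested.

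IGHD, the delta heavy chain gene, gave 7.30, 7.13 and 7.03 on MMS1 miR-16 sponge arrays and 6.61, 6.78 and 6.46 on MMS1 control arrays. The groups did not overlap, and the change was 0.54 (SE 0.114, limma adjusted p = 0.00852). Its other 4 probe sets were not called, and the mean over all 5 gave 0.05 (adjusted p = 0.714), so the call rests on 1 probe set. IGHM, the mu heavy chain gene, gave 0.43 (adjusted p = 0.0722) and CD22 0.29 (adjusted p = 0.0912), neither past the threshold.

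Across the 101 probe sets of the 37 genes, 4 rose and 4 fell in MMS1, where 10.3% of all probe sets were called. CD74 through its second brightest probe set gave 6.27, 5.98 and 6.50 on miR-16 sponge arrays and 5.14, 4.81 and 5.14 on control arrays, without overlap, a change of 1.22 (adjusted p = 0.000238). The brightest CD74 probe set changed by -0.05 (adjusted p = 0.916), so the probe sets of CD74 disagree. IGKC through the fourth brightest of its 8 probe sets gave 6.19, 5.95 and 6.34 with the sponge and 5.35, 5.16 and 5.11 with the control, a change of 0.95 (adjusted p = 0.000985), while the brightest gave 0.12. That IGKC probe set is of the x_at kind, which can bind related transcripts. Of the 51 probe sets shared with other genes 3 rose and 0 fell. All 3 are among the 11 that name IGKC, and they are of the x_at kind too. Their changes were 1.11, 0.97 and 0.53 (limma adjusted p = 0.00106, 5.94e-05 and 0.01).

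The remaining probe-set calls in MMS1 were fragile. DERL3 through its second brightest probe set changed by -0.43 (adjusted p = 0.0282), and leaving out any of MMS1 miR-16 sponge replicates 1 and 2 and MMS1 control replicates 1 and 3 ended the call (adjusted p up to 0.123). EBF1 through the third of its 4 probe sets changed by -0.77 (adjusted p = 0.0391), and leaving out any array other than RPMI8226 miR-16 sponge replicates 1 and 3 and RPMI8226 control replicates 1, 2 and 3 ended the call (adjusted p up to 0.133). The brightest EBF1 probe set gave 5.21, 5.34 and 5.26 on MMS1 miR-16 sponge arrays and 5.49, 5.15 and 5.0 on MMS1 control arrays. These groups overlapped, so the probe sets of EBF1 disagree. CD22 through its dimmest probe set changed by 0.52 (adjusted p = 0.0439), and leaving out any array other than MMS1 miR-16 sponge replicate 3, MMS1 control replicate 3 and RPMI8226 miR-16 sponge replicate 2 ended the call (adjusted p up to 0.163).

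In RPMI8226 none of the 37 genes passed. The threshold was passed by 43 of 19775 genes, or 0.217% (0.0152% as higher and 0.202% as lower), so a count of 0 in 37 is what that background gives. At an unadjusted p under 0.05, 6 of the 37 passed, against 14.3% of all genes, and 5 did not overlap between sponge and control, against 24.9%. The median change was 0.03, against -0.02 for all genes. The unadjusted 95% intervals of the 37 changes had a median half-width of 0.30.

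EBF1, an early B cell factor, came nearest to the threshold in RPMI8226. Through its brightest probe set it gave 4.27, 4.78 and 4.23 on miR-16 sponge arrays and 5.39, 5.27 and 5.19 on control arrays, all far below the median gene. The groups did not overlap, and the change was -0.86 (SE 0.158, limma adjusted p = 0.0544). The call was gained without RPMI8226 miR-16 sponge replicate 2 (adjusted p = 0.0267) and without MMS1 miR-16 sponge replicate 1 (adjusted p = 0.0361), and the mean over all 4 probe sets gave -0.18. In the same line BACH2 gave 6.69, 6.62 and 6.41 with the miR-16 sponge and 6.51, 6.70 and 6.44 with the control. These groups overlapped, and the change was 0.03 (adjusted p = 0.955). IGHD gave 7.0, 7.21 and 7.07 with the sponge and 6.81, 6.88 and 6.75 with the control, without overlap, but its change of 0.28 did not pass (adjusted p = 0.298). BLK changed by 0.41, CD79B by 0.32 and VPREB3 by -0.33, with adjusted p of 0.217, 0.363 and 0.316.

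**Figure D4:**
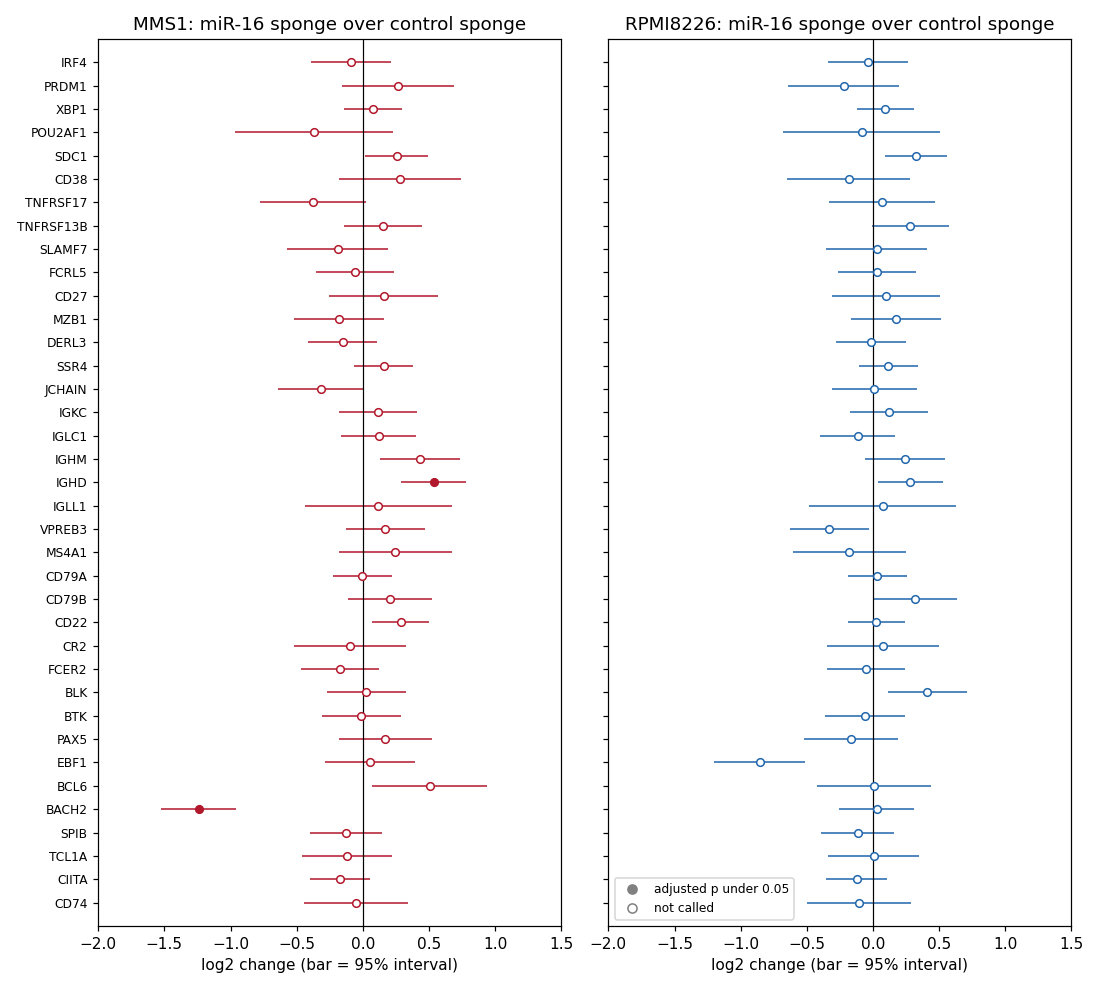
Log2 change of each of the 37 genes, miR-16 sponge over control sponge, with 95% intervals, in MMS1 (left) and RPMI8226 (right); filled points passed the test. BACH2 (-1.24) and IGHD (0.54) are filled in MMS1, and no point is filled in RPMI8226.

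Whether a sponge effect differed between the lines was tested directly, as the RPMI8226 change minus the MMS1 change. Of the 37 genes, BACH2 and EBF1 passed, where 5.9% of all genes did (2.63% with a positive and 3.27% with a negative difference), and 3 passed unadjusted, where 20.1% of all genes did. BACH2 differed by 1.27 (adjusted p = 0.00145) and through its second probe set by 1.61 (adjusted p = 0.000753), and both held under every alternative in which they were tested. EBF1 differed by -0.91 (adjusted p = 0.0335), but leaving out any array other than MMS1 control replicate 1 and RPMI8226 miR-16 sponge replicate 2 ended the call (adjusted p up to 0.0812), and the mean over its probe sets gave 0.16. Of the other probe sets named above, that of CD74 differed by -0.96 (adjusted p = 0.025), and leaving out any of MMS1 miR-16 sponge replicates 1 and 3, MMS1 control replicate 2, RPMI8226 miR-16 sponge replicates 2 and 3 and RPMI8226 control replicate 2 ended the call (adjusted p up to 0.0676). That of IGKC differed by -0.90 (adjusted p = 0.0245), and leaving out any of MMS1 miR-16 sponge replicate 3, MMS1 control replicates 2 and 3, RPMI8226 miR-16 sponge replicates 2 and 3 and RPMI8226 control replicate 3 ended the call (adjusted p up to 0.0638). That of DERL3 differed by 0.65 (adjusted p = 0.0327), and leaving out any array other than MMS1 miR-16 sponge replicate 3 and MMS1 control replicate 2 ended the call (adjusted p up to 0.088). Of the 51 probe sets shared with other genes 2 passed, where 5.1% of all probe sets did. Both name IGKC, at -0.81 (limma adjusted p = 0.00736) and -1.12 (adjusted p = 0.0189). The unadjusted 95% intervals of the 37 differences had a median half-width of 0.43.

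**Figure D5:**
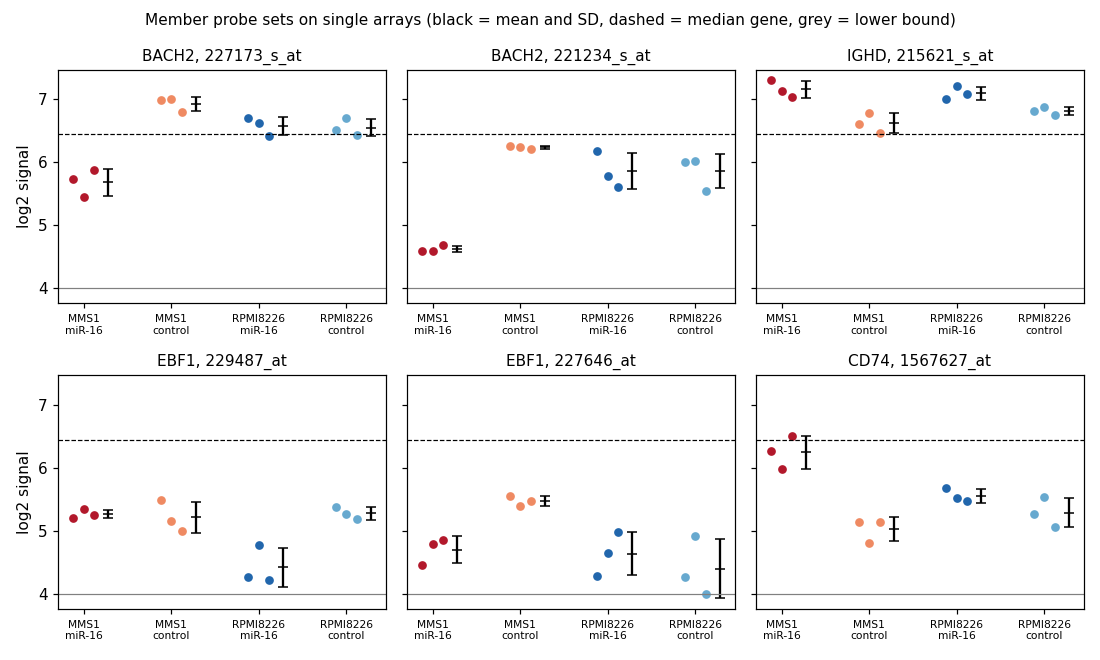
Log2 signal on single arrays of 6 probe sets of BACH2, IGHD, EBF1 and CD74 (coloured points), with the mean and SD of each group in black; the dashed line is the median gene (6.44) and the grey line the lower bound of 4. In MMS1 both BACH2 probe sets are lower on miR-16 sponge arrays, and in RPMI8226 the sponge and control points overlap.

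The lines themselves were then compared, RPMI8226 minus MMS1, with the caution that these comparisons share arrays with those above. Between the control arrays none of the 37 genes passed, where 10.3% of all genes did (6.52% as higher and 3.8% as lower in RPMI8226). Unadjusted, 7 of the 37 passed, against 22.9% of all genes, and 8 did not overlap, against 32.5%. PRDM1 came nearest, at 6.31 ± 0.21 in RPMI8226 and 5.69 ± 0.30 in MMS1 control arrays (SD, n = 3 each), a difference of 0.61 (adjusted p = 0.0786). Its dimmest probe set passed, at 0.65 (adjusted p = 0.0337), though leaving out any of MMS1 control replicates 2 and 3 and RPMI8226 control replicates 1, 2 and 3 ended the call (adjusted p up to 0.118). The mean over its 3 probe sets passed as well (0.53, adjusted p = 0.00181). EBF1 through the third of its probe sets gave -1.08 (adjusted p = 0.00742), with values of 4.27, 4.92 and 4.0 in RPMI8226 and 5.56, 5.39 and 5.47 in MMS1 control arrays. RPMI8226 control replicate 3 lay at the lower bound, so the size of this difference is not fixed. IGKC through the fourth of its probe sets gave 0.65 (adjusted p = 0.0152), and leaving out any of MMS1 control replicates 2 and 3 and RPMI8226 control replicate 3 ended the call (adjusted p up to 0.0754). Of the 51 probe sets shared with other genes 3 were higher in RPMI8226 and 0 lower, all 3 naming IGKC. Over all probe sets 8.18% were called.

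Between the miR-16 sponge arrays of the lines, BACH2 was higher and EBF1 lower in RPMI8226, where 20.6% of all genes were called. Unadjusted, 5 of the 37 passed, against 33.4% of all genes, and 6 did not overlap, against 37.2%. BACH2 averaged 6.58 ± 0.15 in RPMI8226 and 5.68 ± 0.22 in MMS1 (SD, n = 3 each), a difference of 0.89 (adjusted p = 0.000467). EBF1 averaged 4.43 ± 0.31 in RPMI8226 and 5.27 ± 0.07 in MMS1, a difference of -0.84 (adjusted p = 0.00251). The EBF1 call was lost with the mean over its probe sets (-0.20, adjusted p = 0.304). XBP1 and SDC1 gave 0.27 (adjusted p = 0.0819) and 0.28 (adjusted p = 0.1). Of the 51 probe sets shared with other genes 3 were lower in RPMI8226 and 0 higher, where 17.7% of all probe sets were called. Of these 3, 1 names IGKC and 2 name both IGHM and IGHD.

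Companion lists for the B lineage and antibody secretion were read in the same way. Of 43 other B cell and plasma cell genes, 4 rose and 2 fell in MMS1, a share of 14.0% against 12.4% of all genes, and 0 passed in RPMI8226, where 0.217% of all genes did. The median of the list stood at percentile 37.2 to 46.0. CD24, a surface glycoprotein of immature B cells and of epithelial cells, gave 12.43, 12.34 and 12.41 on MMS1 miR-16 sponge arrays and 9.65, 9.53 and 9.65 on MMS1 control arrays. The groups lay far apart, with a change of 2.79 (adjusted p = 1.06e-09), against 0.09 in RPMI8226 (adjusted p = 0.743). The signal peptidase gene SEC11C rose by 0.71 (adjusted p = 0.00369). The integrin gene ITGA4 gave 5.26, 5.26 and 5.32 on MMS1 miR-16 sponge arrays and 4.0, 4.0 and 4.46 on MMS1 control arrays, a fitted change of 1.13 (adjusted p = 0.000357). ITGA4 thus rose, but 2 MMS1 control values sat at the file's lower limit of 4, so the size of the rise is not fixed. CREB3L2, a stress transducer of the endoplasmic reticulum, changed by -0.58 (adjusted p = 0.00492), or 0.02 as the mean over its probe sets. The highest means of the list were those of CD24, TCF3, HERPUD1 and CREB3L2, at 11.26, 9.54, 8.98 and 8.62.

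Of 14 class II genes and regulators, 0 rose and 4 fell in MMS1, or 28.6%, where 12.4% of all genes were called and 8.08% as lower. Their median change was -0.17 against -0.04 over all genes, and 0 passed in RPMI8226, where 0.217% of all genes did. HLA-DPB1, a class II chain, changed by -1.02 (adjusted p = 0.00022) and RFXANK, a subunit of the RFX complex, by -0.81 (adjusted p = 0.000418). The other RFX subunits RFXAP and RFX5 gave -0.47 and -0.47, and both calls were fragile: for RFXAP, leaving out any of MMS1 miR-16 sponge replicates 2 and 3, MMS1 control replicates 1 and 3 and RPMI8226 control replicate 2 ended the call (adjusted p up to 0.142), and for RFX5, leaving out any array other than MMS1 miR-16 sponge replicate 1 and RPMI8226 miR-16 sponge replicate 2 ended the call (adjusted p up to 0.151). Without any 1 of the arrays named for RFXAP the count of 4 became 2.

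Of 25 secretory machinery genes 4 rose and 1 fell in MMS1, or 20%, against 12.4% of all genes. Their median change was 0.16 against -0.04 over all genes, and 0 passed in RPMI8226, where 0.217% of all genes did. The count of 5 became 2 or 3 when any of MMS1 miR-16 sponge replicates 1 and 2 and MMS1 control replicates 1, 2 and 3 was left out, and 8 among brighter probe sets. The translocon-associated gene SSR3 rose by 0.96 (adjusted p = 4.69e-05) and the cargo receptor gene LMAN1 by 0.64 (adjusted p = 0.000999), and both were still called without each array in turn. SSR1 gave 0.42 (adjusted p = 0.0194), and leaving out any of MMS1 miR-16 sponge replicate 1 and MMS1 control replicates 1 and 2 ended the call (adjusted p up to 0.0787). SEC62, a protein of the translocation channel named after its values were seen, gave 0.39 (adjusted p = 0.0361), and leaving out any array other than MMS1 miR-16 sponge replicate 3, RPMI8226 miR-16 sponge replicates 1, 2 and 3 and RPMI8226 control replicate 1 ended the call (adjusted p up to 0.114). The coat subunit gene SEC13 gave -0.36 (adjusted p = 0.03), and leaving out any of MMS1 miR-16 sponge replicates 2 and 3 and MMS1 control replicates 1, 2 and 3 ended the call (adjusted p up to 0.0993). The mean log2 level of the 25 genes was 9.46, 9.27 and 9.24 on MMS1 miR-16 sponge arrays and 9.19, 9.11 and 9.20 on MMS1 control arrays. The highest, miR-16 sponge replicate 1, is the array whose 18S signal stood apart, and its actin probe sets differed most between the 3' and 5' ends, by 0.49 against 0.08 to 0.34 on the other 11 arrays. For GAPDH the same 3' minus 5' difference was lowest on this array, at -0.03 against 0.02 to 0.17 on the other 11. The part of RNA quality in the secretory changes was not tested. Between the miR-16 sponge arrays of the lines, 16 of the 25 were lower in RPMI8226 and 0 higher, against 8.38% and 12.2% of all genes. The 16 became 9 with the arrays compared alone and 12 without MMS1 miR-16 sponge replicate 1. SSR4, a subunit of the same complex as SSR3, gave 0.01 there (adjusted p = 0.97).

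Some myelomas carry a translocation of MAF, so MAF and 6 genes reported as raised with it were read too. MAF averaged 5.73 and its target ITGB7 6.58, and the median of the 7 genes stood at percentile 23.5 to 38.6. CCND2, a cyclin gene among the 7, averaged 10.11 and gave -0.46 in MMS1 (adjusted p = 0.0191), and leaving out any of MMS1 miR-16 sponge replicates 2 and 3 and MMS1 control replicates 1 and 3 ended the call (adjusted p up to 0.0782). In RPMI8226 CCND2 gave -0.25.

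Some markers of other cell types also moved on the arrays on which BACH2 fell. Of 14 erythroid markers 4 rose and 5 fell in MMS1, or 64.3% against 12.4% of all genes, and their mean log2 level per array was 9.01 to 9.14 with the miR-16 sponge and 9.12 to 9.17 with the control. In RPMI8226 1 rose and 1 fell, or 14.3% against 0.217% of all genes. Means there were 9.56 to 9.65 with the sponge and 9.32 to 9.45 with the control, while the median change of the 14 markers was 0.07. HBB, the adult beta globin gene, rose by 3.16 in RPMI8226 (adjusted p = 2.84e-09) and by 2.91 in MMS1 (adjusted p = 1.06e-09). The other risers in MMS1 were RHAG, TFRC and TAL1, at 2.47, 0.67 and 0.62. The 5 that fell there were ALAS2, HBZ, KLF1, NFE2 and GATA1, at -2.51, -1.94, -1.85, -0.84 and -0.41. Leaving out any of MMS1 miR-16 sponge replicate 3 and MMS1 control replicates 1 and 3 ended the GATA1 call. The TAL1 call was lost with the mean over probe sets. HBE1 gave -0.49 in RPMI8226 (adjusted p = 0.046), and leaving out any array other than MMS1 miR-16 sponge replicate 1 ended the call (adjusted p up to 0.163). Of 12 T cell markers 2 rose in MMS1, or 16.7% against 12.4% of all genes, CD3D by 5.64 and CD7 by 0.84. The T cell list means were 6.54 to 6.63 with the sponge and 5.89 to 5.97 with the control, while the median change of the 12 markers was 0.14. CD3E and CD3G, which form the receptor complex with CD3D, averaged 5.95 and 4.87. Of 11 stromal and epithelial markers 4 rose in MMS1, or 36.4% against 12.4% of all genes. All 4 are epithelial genes: KRT8, KRT18, EPCAM and KRT19, by 2.60, 1.10, 0.60 and 0.43. The KRT19 call was lost with the mean over probe sets, with the arrays compared alone and without MMS1 control replicate 2. The list means were 8.0 to 8.09 with the sponge and 7.58 to 7.63 with the control, while the median change of the 11 markers was 0.10. The 11 myeloid markers had list means in MMS1 of 5.71 to 5.76 with the sponge and 5.59 to 5.73 with the control. Of them 1 rose there, or 9.09% against 12.4% of all genes. That was the integrin gene ITGAM, by 0.64 (adjusted p = 0.0182), and leaving out any of MMS1 miR-16 sponge replicate 1 and MMS1 control replicate 2 ended the call (adjusted p up to 0.0815). The part of these markers in the BACH2, IGHD and CD74 results was not tested.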

How the data were processed

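Transcripts were measured in 12 samples on Affymetrix arrays, 1 array each, as total RNA amplified and labelled with biotin, per the labels' protocols. The authors deposited 1 log2 signal per probe set and array, per the file headers and the values, and their probe summarization and scaling are not given in the sources used. No further normalization was applied. Groups and replicate numbers were read from the titles.

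The fit left out 62 Affymetrix controls and tested 54613 probe sets in limma 3.58.1 under R 4.3.3, with 1 mean per group, 8 residual degrees of freedom and no block. The moderated test of limma was two-sided, p-values were adjusted by the Benjamini-Hochberg method over all probe sets tested, and genes with an adjusted p under 0.05 were called. Of the probe sets, 41091 named 1 gene, 1801 several and 11721 none. Symbols were updated by gene identifier through a RefSeq table of GRCh38.p14, and 42 symbols had no match there. Each gene was read through the brightest probe set naming it alone. Tables and figures used Python 3.11.15, pandas 2.3.3 and matplotlib 3.10.9, and the fit was tested on simulated data.

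The members and the companion lists were chosen with earlier results of these data known. Values on each array were given for members called in a sponge comparison or in the difference and for 12 defining genes. From each companion list came up to 4 genes with the smallest p among those called and up to 4 with the highest level. For the other cell types the counts of whole lists were given, with examples chosen after their values were seen, as were the members' further probe sets. Alternatives were a replicate block, quantile normalization, brighter probe sets, the mean over probe sets, a variance trend, fits of the arrays compared and each array left out.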

Additional observations from a re-analysis of the deposited data

Results flagged for a closer look

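The results below were picked out because the sponge effect differed between the lines by limma's interaction test, with the RPMI8226 change minus the MMS1 change given each time. Among the 37 genes, BACH2 differed by 1.27 (adjusted p = 0.00145) through its brightest probe set and by 1.61 (adjusted p = 0.000753) through its second. EBF1 differed by -0.91 (adjusted p = 0.0335), and leaving out any array other than MMS1 control replicate 1 and RPMI8226 miR-16 sponge replicate 2 ended the call (adjusted p up to 0.0812). The second CD74 probe set differed by -0.96 (adjusted p = 0.025), the fourth IGKC probe set by -0.90 (adjusted p = 0.0245) and the second DERL3 probe set by 0.65 (adjusted p = 0.0327). These 3 were lost when some single arrays were left out, as given above.

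Among companion genes, CD24 differed by -2.70 (adjusted p = 1.17e-07), the integrin gene ITGA4 by -1.26 (adjusted p = 0.00452), the signal peptidase gene SEC11C by -0.87 (adjusted p = 0.0172) and the chemokine receptor gene CXCR4 by -0.78 (adjusted p = 0.0148). For ITGA4, 2 MMS1 control arrays lay at the lower bound of 4, so the size of its difference is not fixed. Of the class II genes, HLA-DPB1 differed by 1.05 (adjusted p = 0.00511) and RFXANK by 0.72 (adjusted p = 0.0197); for RFXANK, leaving out any of MMS1 control replicate 1, RPMI8226 miR-16 sponge replicate 2 and RPMI8226 control replicate 1 ended the call (adjusted p up to 0.0578). Of the secretory genes, SSR3 differed by -1.04 (adjusted p = 0.000939) and LMAN1 by -0.75 (adjusted p = 0.00765). SSR1 differed by -0.62 (adjusted p = 0.0268), and leaving out any of MMS1 control replicates 1 and 2, RPMI8226 miR-16 sponge replicates 2 and 3 and RPMI8226 control replicates 2 and 3 ended the call (adjusted p up to 0.0725). DAD1, a subunit of the glycosylation complex, differed by -0.56 (adjusted p = 0.0378), and leaving out any array other than MMS1 miR-16 sponge replicates 2 and 3 ended the call (adjusted p up to 0.0971). CXCR4 and DAD1 were chosen after their values were seen. No cause of these differences was tested.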

How the results depend on the processing

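Counts of the 37 genes called moved with some choices. The share of all genes called can move with the same choices and is not set beside these counts. The moves are therefore not read as particular to the 37 genes. For the sponge effect in MMS1 the 2 calls became 4 among brighter probe sets and 4 with a variance trend, where IGHM and CD22 were added, and 1 with the mean over probe sets, where IGHD was lost. CD22 was also gained with quantile normalization (limma adjusted p = 0.035). IGHM was gained without RPMI8226 miR-16 sponge replicate 1 (adjusted p = 0.0435) and JCHAIN without MMS1 miR-16 sponge replicate 3 (adjusted p = 0.0487). In RPMI8226 the count of 0 became 2 with a variance trend (EBF1 and SDC1), and 0 to 1 when 1 array was left out. For the difference of the sponge effects the 2 calls became 1 among brighter probe sets, from which EBF1 dropped out as too dim to be tested, and 1 to 2 when 1 array was left out; with the mean over probe sets PRDM1 was gained (-0.50, adjusted p = 0.0314), while BACH2 stayed and EBF1 was lost. Between control arrays of the lines the 0 calls became 2 among brighter probe sets (BACH2 and PRDM1), 1 with the mean over probe sets, 1 with a variance trend and 0 to 1 when 1 array was left out. Between the miR-16 sponge arrays the 2 calls became 4 with a variance trend, and with the mean over probe sets SDC1 was gained (0.38, adjusted p = 0.0443) and EBF1 lost. Among brighter probe sets XBP1 (adjusted p = 0.0296) and SDC1 (adjusted p = 0.0399) were gained. SDC1 was gained with quantile normalization (adjusted p = 0.0487) and XBP1 without RPMI8226 miR-16 sponge replicate 3 (adjusted p = 0.0364). The median percentile of the 37 genes, 38.5, became 29.5 with the mean over probe sets and 23.3 among brighter genes only, which keep 15 of them. With the mean over probe sets, IGHM in MMS1 gave -0.0040, CREB3L2 in MMS1 0.019, EBF1 in the difference 0.16 and SEL1L between miR-16 sponge arrays -0.047, each with the sign turned. With a replicate block the counts were 2, 0, 2, 0 and 2, as without it. Residuals of arrays with the same number correlated between -0.0748 and 0.0577 over 18 pairs, so no pairing by number was seen. Correlations over all probe sets cannot exclude a shared preparation that moved only some genes. Apart from the moves by probe set named above, the cause was not tested. Levels near the lower bound of 4 and 3 arrays a group limit what can be seen.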
